A study of Homo sapiens with 12 samples.

Results

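The mitochondrial genome carries a small set of protein-coding genes, all for subunits of the respiratory chain, and 10 of them were followed here in every library of the series: MT-ND1, MT-ND2, MT-ND4, MT-ND5 and MT-ND6 of complex I, MT-CYB of complex III, MT-CO1, MT-CO2 and MT-CO3 of complex IV, and MT-ATP6 of the ATP synthase. The members were the rows of the deposited gene count table with these symbols, 10 of 40295 genes, and all 10 passed the filter on low counts in every fit. The study asked by RNA-seq how compounds proposed to reactivate mutant p53 change transcription. TOV-112D, an ovarian adenocarcinoma line with the p53 mutation R175H, was treated for 3 h with UCI-1001, with its vehicle DMSO or with UCI-1014, an analog in which a methoxy group stands in place of a nitro group, with 2 libraries per group. The labels state no dose for either compound, and the methods used here name one for the UCI-1001 but not for the UCI-1014 samples. Saos-2, an osteosarcoma line that lacks p53, was compared as parental p53-null cells and as cells engineered by lentivirus to make wild-type p53 (p53-WT) from a doxycycline-inducible promoter, with 3 libraries per group. The labels give 16 h of induction for both Saos-2 groups and do not name the inducing agent. Nothing states that the replicates came from separate cultures, so the p-values measure the spread between these libraries, which may be technical.

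Mitochondrial DNA is transcribed on both strands into long precursors that are cut apart at the tRNAs lying between most of the protein genes, so neighbouring genes start out in the same transcript and their levels then depend on how long each mRNA lasts. Most of these genes lie on one strand, and MT-ND6 is the only protein gene on the other. Most of the mRNAs carry very short or no untranslated ends and receive a tail of adenosines that in several of them completes the stop codon. The proteins are made on mitochondrial ribosomes and joined with subunits encoded in the nucleus.

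The members lie on the mitochondrial chromosome of GRCh38 (GENCODE release 44) in the order MT-ND1 (chrM:3307-4262), MT-ND2 (chrM:4470-5511), MT-CO1 (chrM:5904-7445), MT-CO2 (chrM:7586-8269), MT-ATP6 (chrM:8527-9207), MT-CO3 (chrM:9207-9990), MT-ND4 (chrM:10760-12137), MT-ND5 (chrM:12337-14148), MT-ND6 (chrM:14149-14673, minus strand) and MT-CYB (chrM:14747-15887). Each is a single exon, from 525 bases (MT-ND6) to 1812 bases (MT-ND5). MT-ATP6 shares its first 46 bases with the end of MT-ATP8 and its last base with MT-CO3, and MT-ND4 shares 7 bases with MT-ND4L, so reads in these stretches belong to both genes. The last 30 bases of 4 members are printed to show the ends of their annotated transcripts, with the final, partly incomplete codon in capitals.
MT-CO3 (chrM:9961-9990): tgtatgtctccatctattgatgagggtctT
MT-ND1 (chrM:4233-4262): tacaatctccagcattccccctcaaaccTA
MT-CO1 (chrM:7416-7445): ttcgaagaacccgtatacataaaatctAGA
MT-ND6 (chrM:14149-14178, minus strand): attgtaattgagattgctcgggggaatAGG
MT-CO3 ends on a single T and MT-ND1 on TA, both of which become a full stop codon once adenosines are added. MT-CO1 and MT-ND6 end on AGA and AGG, codons for which the mitochondrion has no tRNA. MT-ND6 also stands apart in base composition, with 35.6% G and 7.05% C, where the other 9 members held 9.50% to 16.2% G and 30.03% to 36.0% C. The sources used here do not state that counting used strand, so reads of MT-ND6 cannot be told apart from reads of the opposite strand of the same stretch.

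The libraries held 17762027 to 20717898 counts in TOV-112D and 19593655 to 24629558 in Saos-2, and the lowest count of any member in any library was 3283 (MT-ND6, p53-null replicate 3). CDKN1A, the cell cycle inhibitor p21, stood at 56.8 to 79.2 CPM (the count relative to the library size scaled by edgeR's TMM factors) in the p53-null and at 7929 to 8998 CPM in the p53-WT libraries, with no overlap. Of the lineage markers, the epithelial keratins KRT8 and KRT18 had 1 to 10 and 0 counts in the TOV-112D libraries but 4098 to 12822 and 8068 to 12739 in Saos-2, and EPCAM had 34 to 57 against 0 to 2. Of the 6 epithelial and ovarian markers tested between the lines, 4 were lower and 2 higher in TOV-112D with DMSO than in p53-null cells. The osteoblast markers were also mixed, with SPP1 at 289 to 1009 counts in Saos-2 and at most 11 in TOV-112D. RUNX2 was at 94 to 256 against 92 to 170, and SP7 at 0 in all Saos-2 libraries. Of the 3 tested between the lines, ALPL was higher and SPP1 lower in TOV-112D with DMSO than in p53-null cells. Of 4 blood and vessel markers, CD68, a lysosomal protein of macrophages and other cells, was higher with UCI-1014 than with DMSO (log2 fold change 0.73). PTPRC was at 25 to 54 counts in TOV-112D. Between the lines PTPRC was higher and CD68 lower in TOV-112D with DMSO than in p53-null cells, and the other 2 were not called. Of 2 tested in Saos-2, VWF was higher in p53-WT than in p53-null cells. Of 2 osteoblast markers tested in Saos-2, SPP1 was higher and RUNX2 lower in p53-WT cells. RUNX2 was also lower with UCI-1014 than with DMSO. Of 4 epithelial and ovarian markers tested in Saos-2, 2 were higher in p53-WT cells, KRT8 most, and WT1 was lower. Of all genes 32.9% were called higher and 32.1% lower in p53-WT cells. The shares were 22.7% and 21.5% with UCI-1014, and 37.0% in each direction between the lines. The part of these markers in the results was not tested. In each Saos-2 group replicate 1 stood apart. Its counts differed from those of replicates 2 and 3 with chi-square values of 22.1 to 37.0 per degree of freedom. Between replicates 2 and 3 the values were 3.31 to 4.07. The Saos-2 calls of the members, the nuclear subunits and the lists of mitochondrial DNA, RNA and regulator genes are therefore also given without it.

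Together the members took up 4.66% and 5.14% of all counts in the DMSO libraries, 3.76% and 3.72% with UCI-1001, and 3.11% and 3.48% with UCI-1014. Every treated library lay below both DMSO libraries. The share was 1.25%, 1.38% and 1.24% in p53-null cells and 1.56%, 1.40% and 1.41% in p53-WT cells. All TOV-112D libraries thus lay above all Saos-2 libraries, and the p53-WT libraries lay above the p53-null ones by a narrow margin, which was lost in the share of deposited TPM, where the p53-WT libraries (2.20%, 2.33% and 2.37%) overlapped the p53-null libraries (2.02%, 2.46% and 2.17%). Group means were 4.90% ± 0.343 (SD, n = 2) for DMSO, 3.74% ± 0.0321 (n = 2) for UCI-1001, 3.30% ± 0.262 (n = 2) for UCI-1014, 1.29% ± 0.0775 (n = 3) for p53-null and 1.45% ± 0.0905 (n = 3) for p53-WT. In bulk RNA, fewer cells of a kind, fewer copies of mitochondrial DNA and less RNA per copy cannot be told apart.

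**Figure D1:**
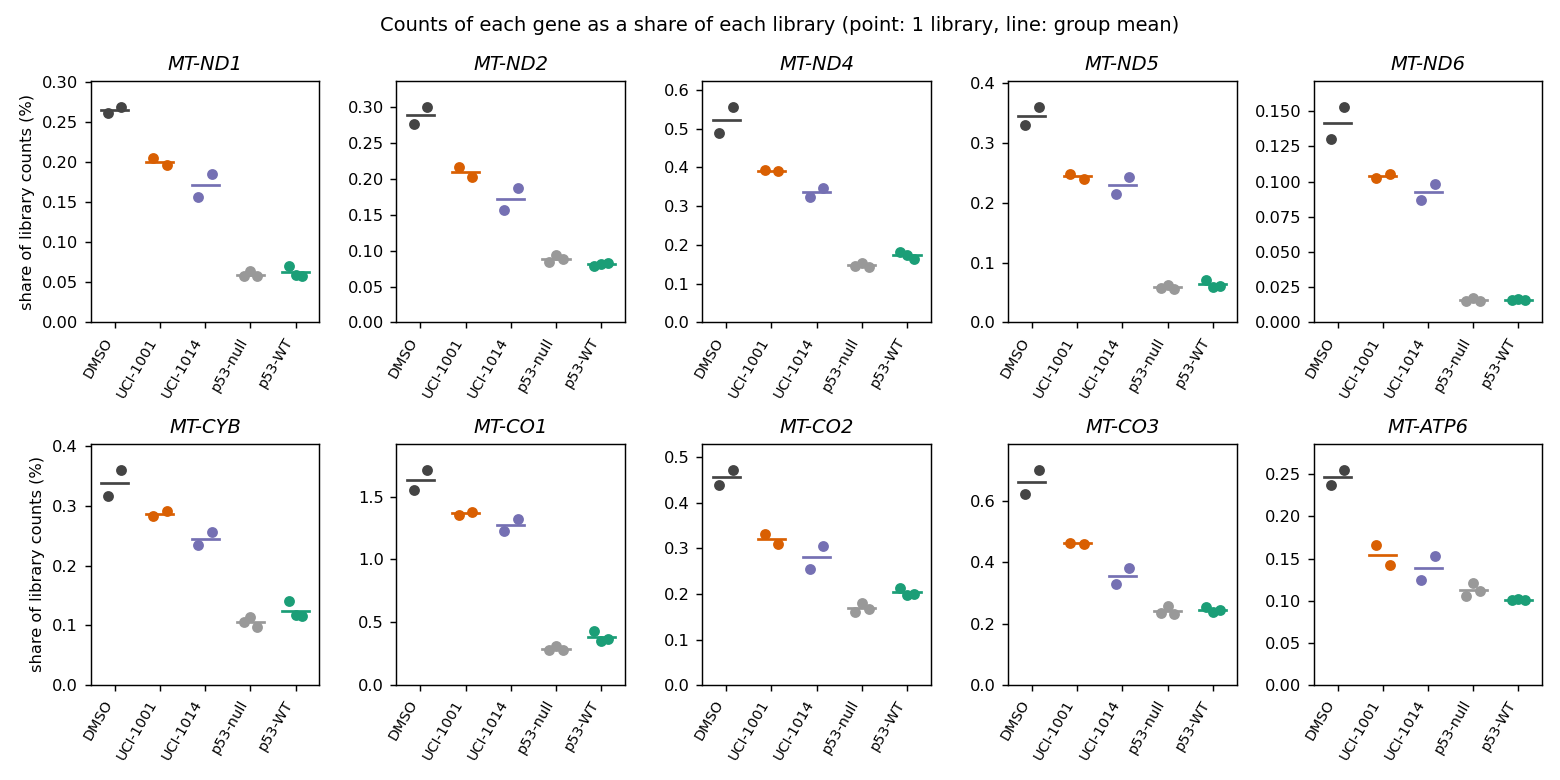
Counts of each of the 10 members as a share of all deposited counts of the library (y axis, percent, a separate scale for each gene), with 1 point per library and a line at the group mean. For every gene both DMSO libraries lie above all 4 treated TOV-112D libraries, and MT-CO1 reaches the highest share, 1.71% in DMSO replicate 2.

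All 10 members were lower in TOV-112D cells treated with UCI-1001 than with DMSO (10 of 10 at an adjusted p-value under 0.05 by edgeR's quasi-likelihood test, where 5.22% of the 14989 genes tested were called lower and 7.75% higher). MT-ATP6, the proton channel subunit of the ATP synthase, stood at 2286 and 2472 CPM in the DMSO libraries and at 1612 and 1386 CPM with UCI-1001, 63.0% of the DMSO level. This was the largest decrease, by 0.67 on the log2 scale (SE 0.0903, adjusted p = 0.00112). For MT-CO3, a core subunit of cytochrome c oxidase, the values were 5997 and 6797 CPM against 4522 and 4491 CPM (log2 fold change -0.51, SE 0.0659, adjusted p = 0.000911). MT-CO2, which carries the copper centre that takes electrons from cytochrome c, had 4225 and 4570 CPM against 3233 and 3020 CPM (-0.49, SE 0.0711, adjusted p = 0.00159). MT-CO1, the catalytic subunit of the same enzyme and the most abundant member, was reduced less, from 14946 and 16594 CPM to 13178 and 13498 CPM (-0.24, SE 0.047, adjusted p = 0.00806). None of these groups overlapped, and the treated libraries were below both DMSO libraries for each gene.

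The complex I and complex III members gave the same direction with UCI-1001. MT-ND5, one of the proton-pumping subunits of complex I, had 3175 and 3489 CPM with DMSO and 2419 and 2344 CPM with UCI-1001 (log2 fold change -0.48, SE 0.0568, adjusted p = 0.000475, the smallest adjusted p of the members). MT-ND6, the light-strand gene, had 1253 and 1481 CPM against 1001 and 1028 CPM (-0.43, SE 0.0734, adjusted p = 0.00404). The rows of both genes were thus lower in both treated libraries, with the limit on strand given above for MT-ND6. The other complex I members changed by -0.39 (MT-ND1), -0.40 (MT-ND4) and -0.45 (MT-ND2). MT-CYB, the cytochrome b of complex III, changed least, from 3043 and 3496 CPM to 2757 and 2852 CPM (-0.22, SE 0.0605, adjusted p = 0.0392). The median over the members was -0.44, against -0.0025 over all genes tested, and the groups did not overlap for any of the 10, as was the case in the lower direction for 28.7% of all genes. Between 1.91% (MT-ATP6) and 12.9% (MT-CYB) of all genes had a more negative fold change. Without DMSO replicate 2 the calls for MT-CYB (adjusted p = 0.288) and MT-CO1 (adjusted p = 0.0766) were lost and 8 members passed the threshold, and MT-CYB also failed it without UCI-1001 replicate 1 (adjusted p = 0.137) or 2 (adjusted p = 0.0994).

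All 10 members were also lower with UCI-1014 than with DMSO (10 of 10, where 21.5% of all genes were called lower), to between 59.02% and 86.0% of the DMSO level. MT-CO3 had the largest decrease here, to 3507 and 4044 CPM (log2 fold change -0.76, SE 0.0661, adjusted p = 8.84e-06). MT-ATP6 reached 1328 and 1631 CPM (-0.68, SE 0.0904, adjusted p = 0.000161), and MT-ND2, a further proton-pumping subunit of complex I, went from 2665 and 2911 CPM to 1670 and 1992 CPM (-0.61, SE 0.0715, adjusted p = 7.39e-05). The treated libraries lay below both DMSO libraries for each of these genes. MT-CO1 moved least here, to 13062 and 14071 CPM (-0.22, SE 0.047, adjusted p = 0.00376). MT-CO2 changed by -0.56, MT-ND4 and MT-ND1 each by -0.50, MT-ND6 by -0.47, MT-ND5 by -0.45 and MT-CYB by -0.32. The median over the members was -0.50, against -0.013 over all genes, and none of the groups overlapped, where 37.4% of all genes had UCI-1014 libraries wholly below the DMSO libraries. With library totals in place of TMM factors the genes called lower and higher in the whole table went from 3218 and 3409 to 5598 and 2396, and all 10 members were called lower either way. Both compounds were set against the same pair of DMSO libraries, so the likeness of the 2 sets of fold changes is in part built in.

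**Figure D2:**
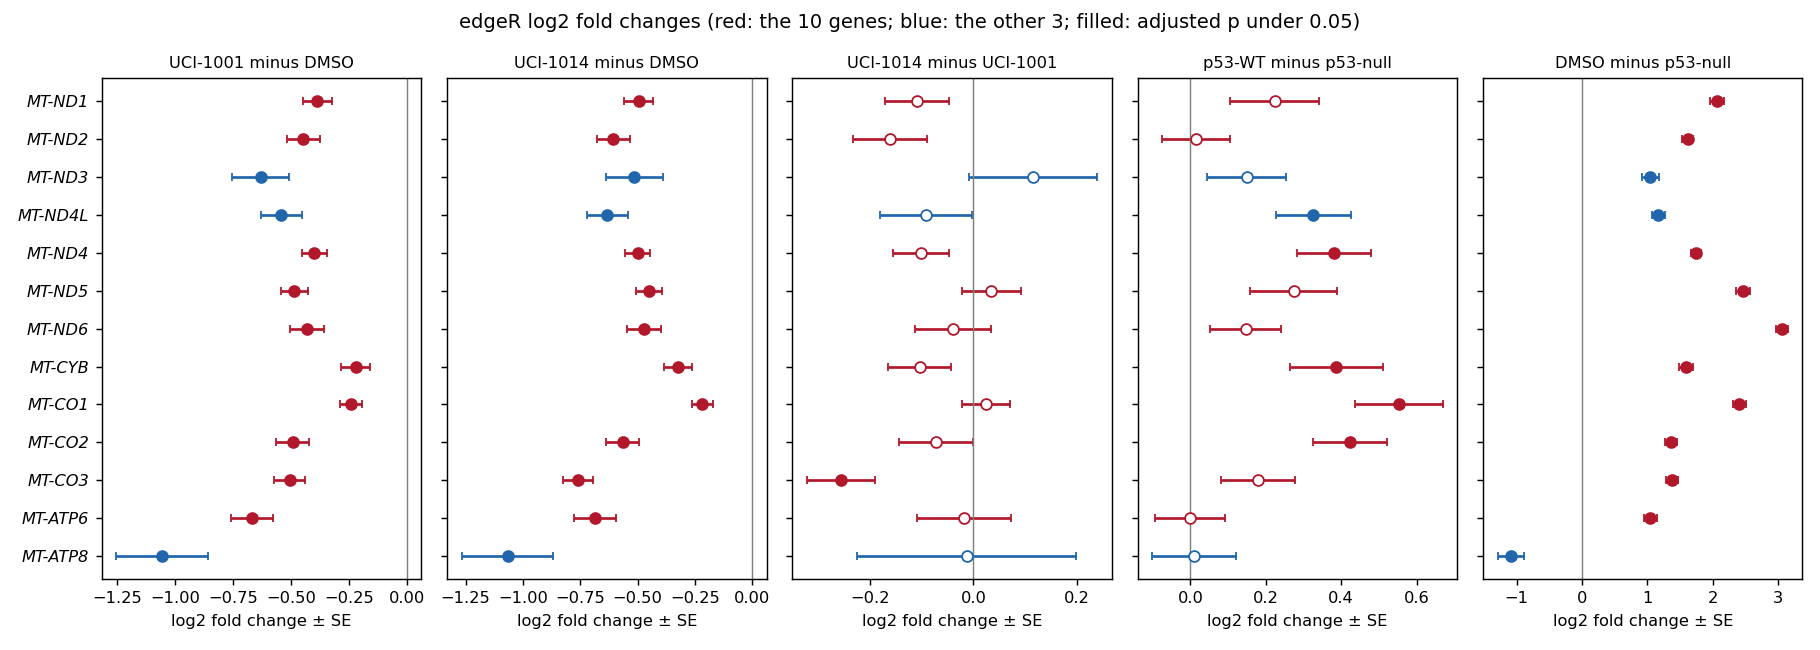
edgeR log2 fold change ± SE (x axis, a separate scale in each panel) of the 13 mitochondrial protein genes in the 5 comparisons, with the 10 members in red, the other 3 genes in blue, and filled points where the adjusted p-value was under 0.05. All 13 genes lie below 0 with both compounds, MT-CO3 is the only filled point between the compounds, MT-CO1 is highest with p53-WT at 0.55, and between the cell lines MT-ATP8 alone lies below 0, at -1.09.

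Set directly against each other, the analogs differed for 1 of 10 members, and this was the only pair of compounds compared. MT-CO3 was lower with UCI-1014 than with UCI-1001 by 0.26 on the log2 scale (log2 fold change -0.26, SE 0.0659, 95% interval -0.38 to -0.13, adjusted p = 0.0163), a share of the members near the 11.5% of all genes called lower. The 4522 and 4491 CPM of the UCI-1001 libraries lay above the 3507 and 4044 CPM of the UCI-1014 libraries. This single call was lost with DESeq2 (adjusted p = 0.0706), with effective lengths (0.0505) and in one fit of all libraries (0.115), and also without UCI-1001 replicate 1 (adjusted p = 0.052) and without UCI-1014 replicate 1 (adjusted p = 0.0946), and 4 members passed without UCI-1014 replicate 2, MT-CO2, MT-ND1 and MT-ND2 being added. For the other 9 members the replacement of the nitro by the methoxy group came with differences from -0.16 (MT-ND2, interval -0.30 to -0.02, adjusted p = 0.126) to 0.03 (MT-ND5, interval -0.08 to 0.15, adjusted p = 0.704). For MT-CO1 the interval ran from -0.07 to 0.12 and for MT-ATP6 from -0.20 to 0.16, which leaves room for differences of up to about these sizes. The dose of UCI-1014 is not known, so a difference in structure and a difference in dose cannot be told apart.

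The remaining protein genes of the mitochondrial genome, which were not members, moved with them. MT-ATP8, whose reading frame overlaps that of MT-ATP6, had 135 and 128 CPM with DMSO, 80.5 and 45.8 CPM with UCI-1001 and 52.8 and 71.9 CPM with UCI-1014 (log2 fold changes -1.05 and -1.07, adjusted p = 0.00677 and 0.00159). MT-ND3 changed by -0.63 and -0.51 and MT-ND4L by -0.54 and -0.63, and all 3 genes passed the test with both compounds. These are the shortest mitochondrial protein genes, and the 3 short genes were at or near the lower end of the fold changes with UCI-1001. Across all 13 protein genes the log2 fold change rose with gene length, with Pearson's r = 0.640 and Spearman's rho = 0.731 for UCI-1001. For UCI-1014 r was 0.636 and rho 0.670. The trend was not particular to the compounds. It also held for p53-WT against p53-null cells (r = 0.496, rho = 0.527) and DMSO against p53-null cells (r = 0.587, rho = 0.681). Between the compounds r was -0.015 and rho -0.14. These values are a description over genes that share the same libraries and transcripts. The fragments that kallisto worked with differed between libraries, with estimated mean lengths of 230.3 and 241 bases for DMSO, 237 and 259 bases for UCI-1001 and 248 and 240.04 bases for UCI-1014. With the effective lengths as an offset 2 of the 3 short genes passed with UCI-1001, and their median moved from -0.63 to -0.50. They numbered 1 without DMSO replicate 1 and 2 without DMSO replicate 2 or UCI-1001 replicate 2, and all 3 passed with UCI-1014 in each of these settings. Of the members, MT-ATP6 had -0.64, MT-CO3 -0.49 and MT-ND6 -0.38 with UCI-1001 under effective lengths, but MT-CO1 (adjusted p = 0.0523), MT-ND6 (0.0804) and MT-CYB (0.152) no longer passed the threshold for UCI-1001, and all 10 passed it for UCI-1014. Of 27 listed mitochondrial genes other than the members, MT-ND3, MT-ND4L and MT-ATP8 alone entered the tests. No ribosomal or transfer RNA of the mitochondrial genome was thus tested.

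In Saos-2 cells 4 of 10 members were higher in p53-WT than in p53-null cells and none was called lower, a share near the 32.9% of the 15081 genes tested that were called higher, with 32.1% called lower. MT-CO1 had 2736, 2922 and 2616 CPM in p53-null and 4657, 3661 and 3813 CPM in p53-WT cells (log2 fold change 0.55, SE 0.117, adjusted p = 0.00214). MT-CO2 had 1559, 1664 and 1572 CPM against 2317, 2040 and 2076 CPM (0.42, SE 0.0983, adjusted p = 0.00371). MT-ND4 had 1431, 1430.0 and 1341 CPM against 1963, 1800.2 and 1709 CPM (0.38, SE 0.0988, adjusted p = 0.00689). The groups did not overlap for these genes, and p53-WT replicate 1 was the highest library for each. MT-CYB had 1030, 1063 and 926 CPM against 1536, 1210 and 1203 CPM (0.39, SE 0.123, adjusted p = 0.0192). The other 6 members did not pass the test, with values of 0.27 for MT-ND5 (adjusted p = 0.0603), 0.22 for MT-ND1, 0.18 for MT-CO3, 0.15 for MT-ND6, 0.015 for MT-ND2 and -0.0020 for MT-ATP6 (interval -0.18 to 0.18). Thus MT-ATP6, with the largest decrease under UCI-1001, had the smallest difference here, and MT-CO1, among the genes that changed least under both compounds, had the largest. Without p53-null replicate 3 the call for MT-CYB was lost (adjusted p = 0.0806), and without p53-WT replicate 2 that for MT-ND5 was gained (adjusted p = 0.0405). The difference between the responses of the 2 cell lines was not tested.

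The p53-WT libraries lay wholly above the p53-null libraries for 8 of the 10 members, and for 34.6% of all genes. The median over the members was 0.25, against -0.014 over all genes. Without the libraries numbered 1 in both groups, 5 members were called higher, MT-ND5 being added (adjusted p = 0.0272), and the median was 0.15. The share of the nuclear genes that passed also moved with these libraries, as given with the nuclear subunits. The p53-null libraries had estimated mean fragment lengths of 199, 191 and 192 bases and the p53-WT libraries of 193, 180.1 and 192 bases. Of the genes that were not members, MT-ND4L was higher in p53-WT cells (0.33, adjusted p = 0.0155), a call lost with total counts only and without p53-null replicate 3, p53-WT replicate 2 or p53-WT replicate 3, and MT-ND3 (0.15) and MT-ATP8 (0.0097) did not pass the test.

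The largest differences were between the cell lines. All 10 members were higher in TOV-112D cells with DMSO than in p53-null Saos-2 cells, at 207% (MT-ATP6) to 833% (MT-ND6) of the Saos-2 level, where 37.0% of the 16812 genes tested in all 12 libraries were called higher and 42.1% did not overlap in that direction. MT-ND6 led with 1253 and 1481 CPM against 152, 162 and 144 CPM (log2 fold change 3.06, SE 0.0941, adjusted p = 1.59e-11). It was followed by MT-ND5 (2.47), MT-CO1 (2.41), MT-ND1 (2.07), MT-ND4 (1.74), MT-ND2 (1.62), MT-CYB (1.60), MT-CO3 (1.38) and MT-CO2 (1.36), and MT-ATP6 came last (1.05, SE 0.0991, adjusted p = 7.41e-07). The complex I genes MT-ND5 and MT-ND6, which lie next to each other on opposite strands, thus had the highest values, and the genes from MT-CO2 to MT-CO3 the lowest. MT-ATP8 went the other way, with 135 and 128 CPM in DMSO and 241, 277 and 263 CPM in p53-null libraries (-1.09, SE 0.201, adjusted p = 0.000298). The CPM printed here were scaled within each line, while the fold changes came from the fit of all 12 libraries. On the scale of that fit MT-ND6 had means of 1331 CPM with DMSO and 160 CPM in p53-null cells. Cell line, time of treatment and any difference in library preparation cannot be told apart in this comparison, and the fragments were longer in TOV-112D (230.3 to 259 bases) than in Saos-2 libraries (180.1 to 199 bases).

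In one fit of all 12 libraries each of the 10 members had the same order of groups by CPM: DMSO, UCI-1001, UCI-1014, p53-WT, p53-null. UCI-1014 and p53-WT, the neighbours from different lines, differed for all 10 members, with log2 differences from 0.29 (MT-ATP6, adjusted p = 0.0158) and 0.30 (MT-CO2, adjusted p = 0.00986) to 2.37 (MT-ND6). The other neighbours were resolved only in part in that fit. Between UCI-1001 and UCI-1014 no member passed the threshold. In the fit of TOV-112D alone the UCI-1014 libraries lay wholly below the UCI-1001 libraries for 3 of 10 members and for 4656 of 14989 genes. In the fit of all libraries DMSO and UCI-1001 missed the threshold for MT-CO1 (adjusted p = 0.372), MT-CYB (0.498) and MT-ND1 (0.143). There p53-WT and p53-null missed it for MT-CO3, MT-ATP6, MT-ND1, MT-ND2 and MT-ND6.

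Levels of different genes were compared per length, as the deposited TPM, an abundance that takes transcript length into account. In DMSO-treated TOV-112D cells MT-CO1 was the highest member with 18401 ± 1101 TPM (SD, n = 2), followed by MT-CO3 with 17764 ± 1459 TPM and MT-CO2 with 14933 ± 778 TPM. The complex IV genes were thus the most abundant, and the first 2 of them were within their spread of each other. In p53-null Saos-2 cells the order was MT-CO3 (5311 ± 510 TPM, n = 3), MT-CO2 (4461 ± 468 TPM), MT-ATP6 (3007 ± 338 TPM) and MT-CO1 (2813 ± 325 TPM). MT-CO1 thus took the first place in all TOV-112D groups and the fourth in p53-null cells, where it was within the spread of MT-ATP6. MT-ND6 stood at 7185 ± 888 TPM with DMSO, the fifth of the 10, and at 619 ± 67.6 TPM in p53-null cells, the ninth. MT-ND5, the longest member, was the lowest in every group, from 476 ± 47.3 TPM (p53-null) to 3222 ± 167 TPM (DMSO). MT-ATP8 stood at 3194 TPM with DMSO, the lowest of the 13 protein genes and within the spread of MT-ND5, and at 5100.1 TPM in p53-null cells, where it was exceeded by MT-CO3 alone.

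**Figure D3:**
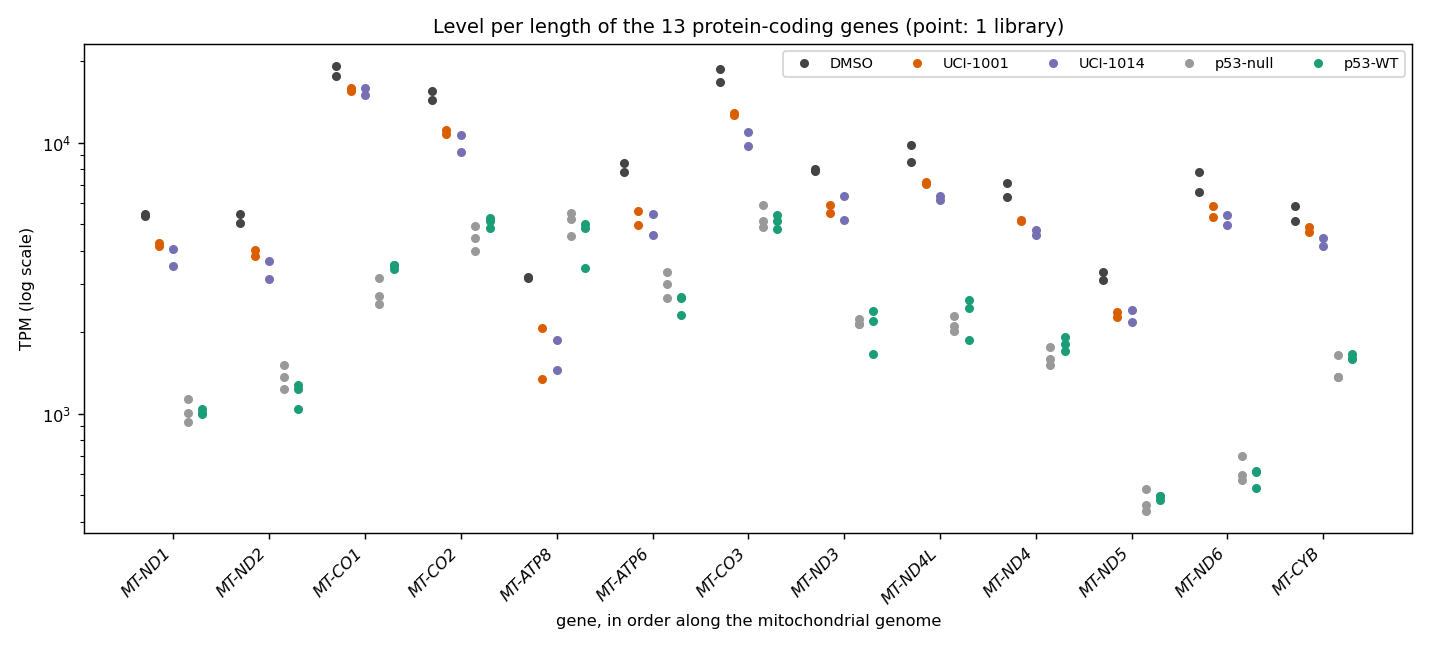
Deposited TPM (y axis, log scale) of the 13 mitochondrial protein genes in their order along the mitochondrial genome (x axis), with 1 point per library, coloured by group. MT-CO1 is highest in DMSO cells at a mean of 18401 TPM, MT-CO3 in p53-null cells at 5311 TPM, and MT-ATP8 is the only gene with higher values in Saos-2 than in TOV-112D libraries.

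The make-up of the mitochondrial counts differed as well. MT-CO1 gave 33.3% ± 0.0243 (SD, n = 2) of the members' counts in the DMSO group, 36.5% ± 0.839 in the UCI-1001 group and 38.8% ± 1.007 in the UCI-1014 group, and MT-CO3 went from 13.5% to 12.3% and 10.8% in the same order. For MT-ATP6 the shares were 5.03%, 4.11% and 4.21%, for MT-ND5 7.05%, 6.52% and 6.96%, and for MT-ND6 2.89%, 2.78% and 2.81%. In the treated libraries MT-CO1 thus made up a larger part of the members' counts. In Saos-2 cells MT-CO1 rose in the same measure from 22.5% ± 0.276 (n = 3) in p53-null to 26.3% ± 1.10 in p53-WT cells, MT-CO3 stood at 18.7% and 16.9%, and MT-ATP6 at 8.74% and 6.99%. These shares are a description and were not tested, and they sum to the same whole, so that a rise in one lowers the others.

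**Figure D4:**
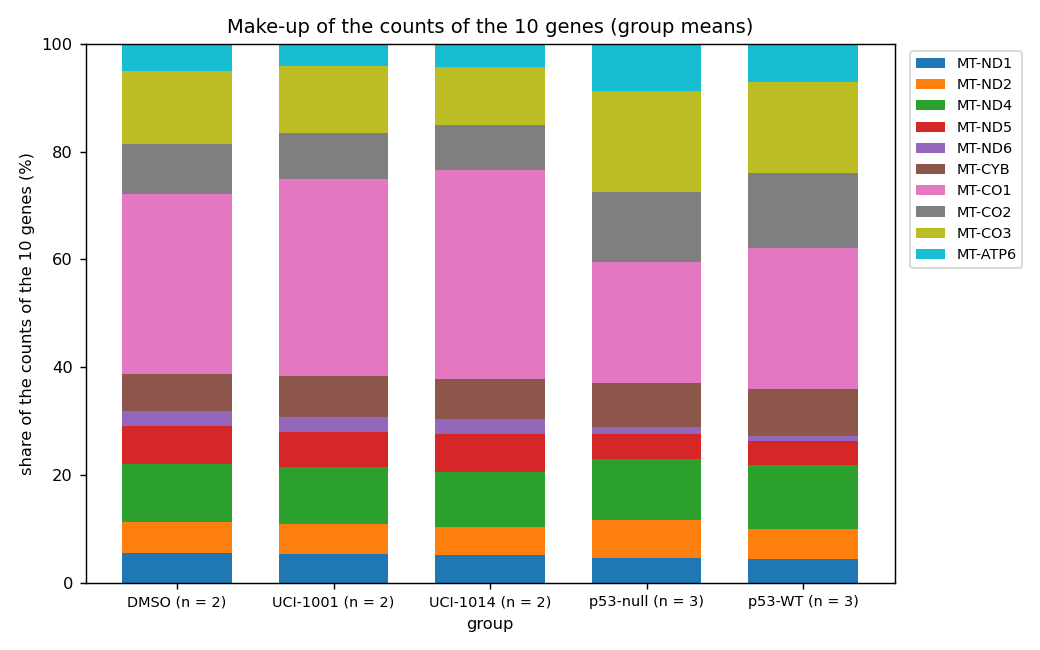
Make-up of the summed counts of the 10 members (y axis, percent, stacked to the whole) as group means. MT-CO1 is the largest part in every group, from 22.5% in p53-null to 38.8% in UCI-1014 libraries.

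The nuclear genes for subunits of the same complexes moved differently with the 2 compounds. Of 78 listed subunit genes 76 were tested. With UCI-1001 none was called higher and 3 were called lower, all of complex I: NDUFA2 (27.7 and 25.6 CPM with DMSO, 20.7 and 18.9 CPM with UCI-1001, log2 fold change -0.43, adjusted p = 0.00804), NDUFV3 (-0.23, adjusted p = 0.0339) and NDUFS5 (-0.20, adjusted p = 0.0404). Their share was near that of all genes called lower, and their median was -0.057 beside -0.44 for the mitochondrial members. With effective lengths as an offset none of the nuclear subunit genes was called. With UCI-1014, 52 of 76 were called lower and none higher, beside 21.5% and 22.7% of all genes, with a median of -0.22. The calls were spread over 23 of 37 complex I genes, 1 of 4 of complex II, 5 of 9 of complex III, 8 of 11 of complex IV and 15 of 15 of the ATP synthase. The largest decrease in each complex was that of NDUFA2 (-0.997, adjusted p = 1.06e-05), SDHA, the catalytic subunit of succinate dehydrogenase (-0.22), UQCR10 (-0.46), COX7B (-0.70) and ATP5ME (-0.73). Complex II, which has no mitochondrially encoded subunit, had 1 call, a share near that of all genes. Between the compounds 39 of 76 nuclear subunit genes were lower with UCI-1014 and none higher, beside 11.5% and 16.2% of all genes, with a median of -0.17, among them COX7B (42.6 and 47.2 CPM with UCI-1014 against 63.3 and 65.5 CPM with UCI-1001, log2 fold change -0.52) and ATP5MC1, a subunit of the ring of the ATP synthase (-0.51). In the same comparison 1 of 10 mitochondrial members passed, with a median of -0.087. In one fit of all 12 libraries the 52 calls became 18, the 39 became 2 and the 3 became 0, and with total counts only the 39 became 67. Single libraries also moved these counts: the 3 calls became 0 without DMSO replicate 1 or UCI-1001 replicate 2, 1 without DMSO replicate 2 and 7 without either UCI-1014 library, and the 39 became 22 without UCI-1001 replicate 1 and 24 without UCI-1014 replicate 1.

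In p53-WT cells 31 of 76 nuclear subunit genes were higher and 1 was lower, beside 32.9% and 32.1% of all genes, with a median of 0.30, beside the mitochondrial median of 0.25. NDUFV3 rose from 31.3, 30.6 and 30.4 CPM to 118, 122 and 121 CPM (1.97, adjusted p = 8.64e-08), SDHA by 1.40, UQCR11 by 0.63, COX6B1 by 0.58 and ATP5MF by 0.51, and SDHD, a membrane anchor of complex II, fell by 0.36. With total counts only the split was 16 higher and 7 lower. Without the libraries numbered 1 the count was 52 higher and 5 lower, and it was 16 higher without p53-null replicate 2, 18 without p53-null replicate 3 and 20 without p53-WT replicate 1. Between the cell lines the nuclear genes ran against the mitochondrial ones, with 53 lower and 4 higher in TOV-112D than in p53-null cells and a median of -0.79, where 37.0% of all genes were called lower. COX6B1 had 77.8 and 77.0 CPM with DMSO and 449, 353 and 382 CPM in p53-null cells (-2.45), and ATP5F1E (-2.39), UQCRFS1 (-2.36), NDUFB1 (-1.65) and SDHB (-1.38) had the largest differences of their complexes. These CPM were again scaled within each line, while the fold changes came from the fit of all 12 libraries. ATP5F1D (0.77) and NDUFB11 (0.52) were higher in TOV-112D.

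**Figure D5:**
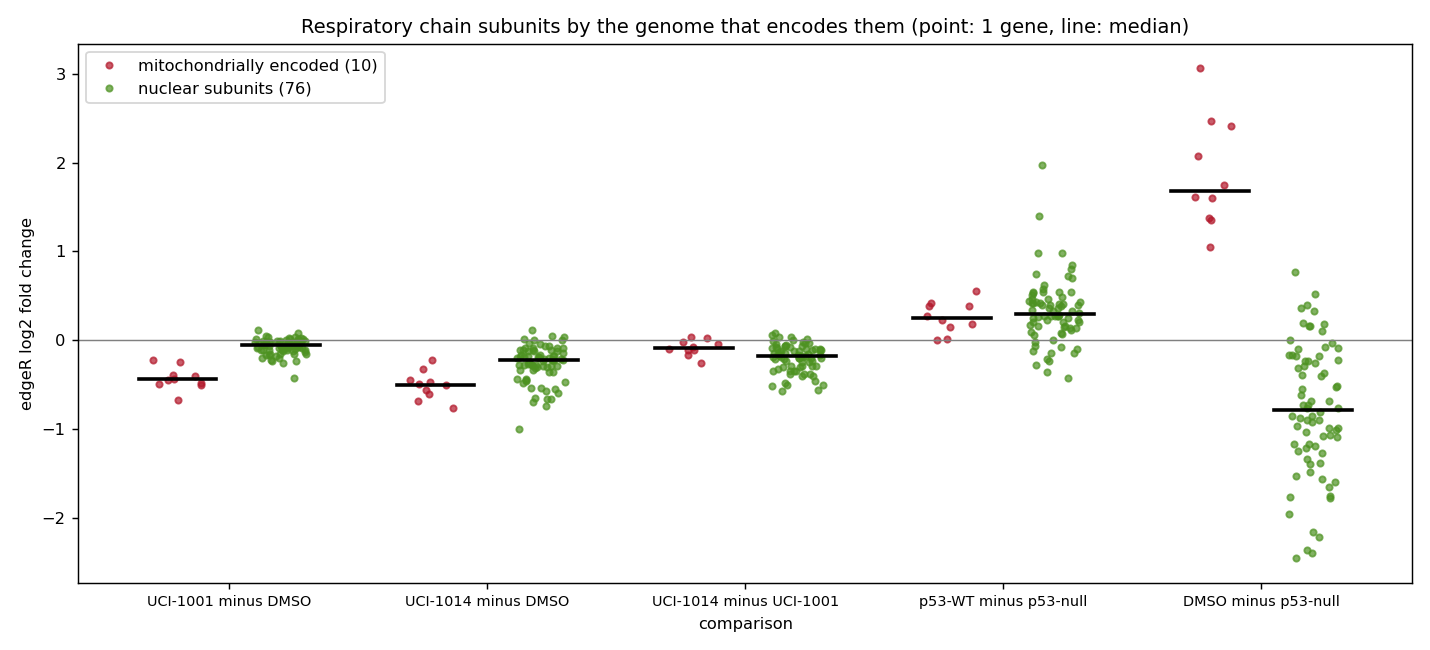
edgeR log2 fold change (y axis) of the 10 mitochondrially encoded members in red and the 76 nuclear subunit genes in green, with 1 point per gene and a line at the median, in the 5 comparisons (x axis). The medians are -0.44 and -0.057 for UCI-1001, -0.50 and -0.22 for UCI-1014, -0.087 and -0.17 between the compounds, 0.25 and 0.30 with p53-WT, and 1.68 and -0.79 between the cell lines.

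Of 13 genes for copying and transcribing mitochondrial DNA, 1 was lower with UCI-1001: POLG, the catalytic subunit of the mitochondrial DNA polymerase, had 116 and 109 CPM with DMSO and 89.8 and 83.6 CPM with UCI-1001 (-0.38, adjusted p = 0.00156). This is 1 of 13 beside 5.22% of all genes, and the call was lost with effective lengths and in one fit of all libraries. With UCI-1014, 4 of the 13 rose, led by TFB2M, a factor for starting mitochondrial transcription (0.35, adjusted p = 0.0038), and 3 fell, led by POLG with 73.7 and 78.5 CPM (-0.56, adjusted p = 2.11e-05). These rises and decreases stand beside 22.7% and 21.5% of all genes, with a median of -0.060 over the list. The counts with UCI-1014 became 0 and 1 in one fit of all libraries, 1 and 2 with effective lengths, 1 and 6 with total counts only, 4 and 1 without DMSO replicate 1, 1 and 1 without DMSO replicate 2 and 2 and 2 without UCI-1014 replicate 1. Between the compounds 2 were lower with UCI-1014, RNASEH1 most (-0.22), and none was called with effective lengths, in one fit of all libraries, or without UCI-1001 replicate 1 or UCI-1014 replicate 1. Of all genes 11.5% were called lower between the compounds. In p53-WT cells 2 rose, MGME1 most (0.85), and 7 fell, PRIMPOL most (-1.56), with a median of -0.38. Of all genes 32.9% rose and 32.1% fell there. The counts became 2 and 6, with a median of -0.17, without the libraries numbered 1. Between the lines 4 were higher in TOV-112D, POLG most (1.71), and 4 lower, SSBP1, the mitochondrial single-stranded DNA-binding protein, most (-1.25). Of all genes 37.0% were called in each direction there.

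Of 19 listed genes for processing and stability of mitochondrial RNA 17 were tested. With UCI-1001 only ELAC2, the enzyme that cuts the 3' ends of tRNAs, passed (-0.19, adjusted p = 0.0298), 1 of 17 beside 5.22% of all genes, and no gene of the list passed with the replicate block, with effective lengths, in one fit of all libraries or without DMSO replicate 1, DMSO replicate 2 or UCI-1001 replicate 1. UCI-1014 came with 5 rises and 6 decreases, beside 22.7% and 21.5% of all genes. These counts became 1 and 1 in one fit of all libraries, 3 and 1 with effective lengths or without DMSO replicate 1, 5 and 3 with DESeq2 or the replicate block, 3 and 8 with total counts only, 4 and 2 without DMSO replicate 2 or UCI-1014 replicate 1, and 6 and 4 without UCI-1014 replicate 2. PDE12, a phosphodiesterase that removes adenosines from mitochondrial mRNA tails, rose from 44.05 and 44.3 CPM to 65.1 and 62.7 CPM (0.53, adjusted p = 2.71e-05), and FASTKD3 fell most (-0.47, adjusted p = 0.0367). PDE12 had 45.5 and 47.1 CPM with UCI-1001, and it was the largest of 4 rises in the comparison of the compounds (0.46), in which 2 fell, ELAC2 most (-0.28). Between the compounds 16.2% of all genes rose and 11.5% fell. In p53-WT cells 1 rose, REXO2 (0.61), and 9 fell, led by PNPT1, the mitochondrial polynucleotide phosphorylase (-1.39). These stand beside 32.9% and 32.1% of all genes, and became 4 and 11 without the libraries numbered 1. Between the lines 3 were higher in TOV-112D, MTPAP, the mitochondrial poly(A) polymerase, most (1.22), and 10 lower, SLIRP most (-1.76). Of all genes 37.0% were called in each direction there.

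Of 6 nuclear regulators of mitochondrial genes 5 were tested in TOV-112D. PPARGC1B, a transcriptional coactivator, had 25.01 and 23.3 CPM with DMSO, 16.2 and 14.4 CPM with UCI-1001 (-0.66, adjusted p = 0.0011) and 10.2 and 9.48 CPM with UCI-1014 (-1.29, adjusted p = 2.84e-06). GABPA, a subunit of the factor also called nuclear respiratory factor 2, rose from 70.9 and 70.1 CPM to 84.2 and 86.3 CPM with UCI-1001 (0.27, adjusted p = 0.00351) and to 119.8 and 115 CPM with UCI-1014 (0.74, adjusted p = 7.24e-07). Both genes also differed between the compounds, by -0.64 (PPARGC1B) and 0.46 (GABPA). In all, 1 regulator rose and 3 fell with UCI-1001, beside 7.75% and 5.22% of all genes, and 1 rose and 4 fell with UCI-1014, beside 22.7% and 21.5%. The calls with UCI-1001 were lost with effective lengths and in one fit of all libraries, with 0 in either direction, and they were 1 and 1 without DMSO replicate 1 or UCI-1001 replicate 2 and 0 and 1 without DMSO replicate 2. With UCI-1014 effective lengths left 1 rise and 2 decreases. In p53-WT cells 2 of 6 rose, PPARGC1A most (1.53), and 3 fell, PPRC1 most (-1.39). These stand beside 32.9% and 32.1% of all genes, and the counts were the same without the libraries numbered 1. Between the lines 3 were higher in TOV-112D, PPARGC1B most (0.85), and PPARGC1A, with 0 CPM in both DMSO libraries, was lower, for which no fold is given. Of all genes 37.0% were called in each direction there.

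Parts of the members are repeated in the nuclear genome as pseudogenes, so that some reads could have been assigned to either copy. Between 4.95% (MT-CYB) and 66.7% (MT-CO1) of the 31-base words of a member, the word length kallisto uses by default, also occurred in another annotated transcript, for MT-CO1 mostly in MTCO1P12 (62.2%), for MT-ATP6 in MTATP6P1 (61.3%) and for MT-ND2 in MTND2P28 (56.9%). MTATP6P1 (chr1:633696-634376, plus strand) is as long as MT-ATP6 and differs from it at 10 of 681 positions, an identity of 98.5%. The first 60 bases of both are printed to show the first difference, with the substitution G19A, counted from the first base of MT-ATP6, in capitals. The next substitution is C129T, so a read that lies between these positions meets no difference.
MT-ATP6 (chrM:8527-8586): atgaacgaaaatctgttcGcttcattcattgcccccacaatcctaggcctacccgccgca
MTATP6P1: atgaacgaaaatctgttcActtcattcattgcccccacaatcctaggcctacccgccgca
MTATP6P1 had 2721 and 2491 counts in the DMSO, 1907 and 1223 in the UCI-1001 and 1210 and 1698 in the UCI-1014 libraries, but 12, 17 and 13 in p53-null and 17, 28 and 21 in p53-WT libraries. Its fold changes with the compounds, -0.82 (adjusted p = 0.00577) and -0.78 (adjusted p = 0.00185), were near those of MT-ATP6. With the pseudogene counts added to their member, MT-ATP6 changed by -0.67 with UCI-1001, and no call of a member was lost.

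A different pattern was seen for MTRNR2L12, a nuclear copy of part of the mitochondrial 16S ribosomal RNA gene. It had 1320.0 and 1440.4 CPM with DMSO, 1347 and 1423 CPM with UCI-1001 and 1848 and 1906 CPM with UCI-1014. It was thus higher with UCI-1014 (0.44, SE 0.0441, adjusted p = 2.28e-05), where all 10 mRNA members were lower, and it did not pass the test with UCI-1001 (0.0052, adjusted p = 0.964). Between the compounds it differed by 0.44 (adjusted p = 6.84e-05). In Saos-2 cells it rose from 204, 233 and 212 CPM to 325, 365 and 354 CPM (0.69, adjusted p = 0.000202). The mitochondrial ribosomal RNA itself entered no test, and whether these counts came from it or from the nuclear copy was not tested. Of 407 symbols of nuclear copies 13 were tested in TOV-112D, of which 1 was lower with UCI-1001, beside 5.22% of all genes. With UCI-1014, 5 were higher, MTRNR2L11 most (0.71), and 4 lower, MTND4P12 most (-0.92), beside 22.7% and 21.5% of all genes. Set against UCI-1001, UCI-1014 came with 5 of 13 higher and none lower (median 0.38), beside 16.2% and 11.5% of all genes. For p53-WT 6 of 11 were higher and none lower (median 0.69), beside 32.9% and 32.1%. Between the lines 10 of 13 were higher in TOV-112D, MTATP6P1 most, and none lower (median 2.51), beside 37.0% in each direction.

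Over the 12 libraries the members moved together within the lines. After centring log2 CPM within each line, the Pearson correlation of the 45 pairs of members ran from 0.377 (MT-CO1 with MT-ATP6) to 0.973, with a median of 0.890. The genes outside the mitochondrial genome whose centred values were most like the mean of the members were taken from the 10331 genes that averaged 10 CPM or more, and they were DEPDC5 (r = 0.937), TAF4 (0.924), AGAP3 (0.902), PEX10 (0.896) and CMTM3 (0.884). Their log2 fold changes with UCI-1001 ran from -0.24 (PEX10) to -0.61 (TAF4, a subunit of the general transcription factor TFIID). With UCI-1014 they ran from -0.33 (DEPDC5) to -0.71 (TAF4), and in p53-WT cells from 0.17 (DEPDC5) to 0.55 (AGAP3). The genes were chosen for this likeness over the same libraries. The directions of these fold changes thus follow from the choice, and no p-value is given for them. The points share libraries and conditions, and the values are a description without a test.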

How the data were processed

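RNA was extracted with the RNeasy kit and sequenced by a commercial service, and how the RNA was selected and whether strand was kept are not given in the sources used here. The authors quantified the reads with kallisto v0.48.0 on GRCh38, added up the estimated counts of each gene's transcripts and stored these as integers, and tested them with DESeq2 v1.38.3. The deposited gene counts are not normalized. The authors also deposited, per library, the estimated counts, TPM and effective lengths of transcripts. TPM entered no test, and effective lengths entered 1 alternative, over 35361 genes. Transcript estimates and gene counts of the 13 mitochondrial protein genes differed by at most 0.99 counts.

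The counts were tested with edgeR 4.0.16 in R 4.3.3 (TMM, filterByExpr with a minimum count of 10, glmQLFit, glmQLFTest, Benjamini-Hochberg adjustment over all genes tested, threshold 0.05), in one fit per cell line and one of all 12 libraries for the comparison of the lines. The lone library left when a replicate was omitted was assumed to vary like the other groups. Intervals are estimate ± 1.96 SE. All 12 libraries had groups from their labels. The scripts were tested on simulated counts. Totals and member counts are given in the report, and at the members' counts the spread between libraries, not counting error, sets the precision. Alternatives were DESeq2 1.42.0 and its size factors, library totals, scaling without mitochondrial genes, no filter, a replicate block, leaving out each library and one fit of all libraries. Chosen after seeing the data were effective lengths, pseudogene counts added to members, the Saos-2 libraries numbered 1 left out, and crossed numbers. Python 3.11.15 with numpy 2.4.6, pandas 2.3.3 and matplotlib 3.10.9 served for all other steps.

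The members and gene lists were chosen with earlier results of these data known. Named were all members, and, per list and comparison, the largest rise and fall among the genes called, for the nuclear subunits per complex, beside the mitochondrial genes and pseudogenes with the largest counts, CDKN1A and the 5 genes most like the members. NDUFS5, NDUFV3 with UCI-1001 and the values of genes named in another comparison were added after their values were seen. The level of the gene engineered in Saos-2 is not reported here.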

Additional observations from a re-analysis of the deposited data

How the results depend on the processing

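All 10 members stayed lower with UCI-1001 and with UCI-1014 than with DMSO in direction under all 15 alternatives, and all 10 higher in DMSO than in p53-null cells at adjusted p-values under 0.05 under all 20. With UCI-1001, 139 of 150 values kept their side of the threshold and 11 lost it, and with UCI-1014 149 of 150 kept it, the exception being MT-CO1 in one fit of all 12 libraries (adjusted p = 0.0919). Leaving out 1 library gave 8 to 10 members called lower with UCI-1001, 10 with UCI-1014, 0 to 4 between the compounds and 3 to 5 higher in p53-WT cells. With UCI-1001, 9 members were called by DESeq2, 7 with effective lengths and 7 in one fit of all libraries. Between the compounds the 1 call became 5 with total counts only, 6 without a filter and 0 with DESeq2, with effective lengths and in one fit. The all-gene medians with total counts only were -0.15 for UCI-1014 against DMSO, -0.13 between the compounds and -0.16 for p53-WT, so the changes there are relative to those shifts.

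For the nuclear subunits the 3 calls with UCI-1001 became 6 with total counts only, 9 without a filter, and 0 with effective lengths and in one fit, and leaving out 1 library gave 0 to 7. For UCI-1014 the 52 became 18 in one fit. Between the compounds the 39 became 67 with total counts only and 2 in one fit, and leaving out 1 library gave 22 to 37. For p53-WT the 31 became 16 with total counts only, with 7 lower, and 52 without the libraries numbered 1, and leaving out 1 library gave 16 to 42. As a share of TPM the members took up 9.26% (DMSO), 7.08% (UCI-1001), 6.45% (UCI-1014), 2.22% (p53-null) and 2.30% (p53-WT), and by that measure the p53-null and p53-WT libraries overlapped. The causes of these moves were not tested.

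Small differences changed sign. Between the compounds MT-CO1 had -0.0985 with total counts only and -0.017 in one fit, and MT-ND5 had -0.089 and -0.0066. Leaving out 1 library gave -0.037 to 0.077 for MT-CO1, -0.062 to 0.119 for MT-ND5, -0.18 to 0.12 for MT-ATP6 (0.087 without UCI-1001 replicate 1), -0.21 to 0.050 for MT-CO2, -0.24 to 0.0053 for MT-ND1 and -0.14 to 0.046 for MT-ND6, with the lower ends without UCI-1014 replicate 2 and the upper ends without UCI-1014 replicate 1. For p53-WT MT-ATP6 had 0.018 with DESeq2 size factors, 0.013 with DESeq2 and 0.0035 in one fit, and -0.029 to 0.046 with 1 library left out. MT-ND2 had -0.14 with total counts only, -0.0007 with effective lengths and -0.0021 to 0.053 with 1 library left out, and MT-ND6 had -0.0060 with total counts only. None of the values with a changed sign passed the test.

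Replicates of one number deviated together with r of -0.13 to 0.053 in TOV-112D and 0.053 to 0.13 in Saos-2 cells. Replicates of unlike number had r of -0.16 to 0.12 in Saos-2 cells. In TOV-112D like and unlike numbers gave mirror values, because 2 libraries per group are centred on their mean. These values thus cannot decide whether the numbers pair the samples. With a replicate block 10, 10, 1, 6 and 10 members were called for UCI-1001, UCI-1014, the compounds, p53-WT (MT-CO3 and MT-ND5 being added) and the cell lines, and 1, 48, 32, 46 and 63 nuclear subunits. With the numbers of UCI-1014 crossed, a pairing chosen after seeing the data, 1 member and 43 nuclear subunits were called lower between the compounds. Over all genes UCI-1001 gave 782 lower and 1161 higher calls, against 158 and 457 with effective lengths, 48 and 246 in one fit, and 203 and 508 without DMSO replicate 1. UCI-1014 gave 3218 and 3409, against 1676 and 1702 in one fit. Between the compounds 1719 and 2432 became 4414 and 1506 with total counts only, 803 and 1324 with effective lengths and 254 and 615 in one fit. With 2 libraries per TOV-112D group a p-value that misses the threshold does not show that levels were equal.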
